A study of Mus musculus with 20 samples.

Results

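Glucocorticoid signalling and the metallothioneins were followed through the stromal, vascular and immune cells of mouse interscapular brown adipose tissue (iBAT). The 8 genes were taken by symbol from the 31053 genes in the matrices, and each symbol was present once. They were the glucocorticoid receptor (Nr3c1), 11β-hydroxysteroid dehydrogenase type 1 (Hsd11b1), 4 genes known as targets of the receptor, namely FK506 binding protein 5 (Fkbp5), TSC22 domain family member 3 (Tsc22d3, also called Gilz), zinc finger and BTB domain containing 16 (Zbtb16, also called Plzf) and serum/glucocorticoid regulated kinase 1 (Sgk1), and metallothioneins 1 and 2 (Mt1, Mt2). Single-cell RNA-seq libraries had been prepared from the stromal vascular fraction after magnetic bead separation into a fraction bound by an antibody cocktail against immune and erythroid lineages (Lin+) and one not bound (Lin-). The 20 libraries came from 10 experiments, each with 1 Lin+ and 1 Lin- library of the same pooled mice. The C57 groups, each with 2 experiments, were male C57BL/6J mice at a room temperature labelled 24 °C (RT), mice housed singly without nesting for 4 days at 6 °C (COLD), and mice that received CL316,243 (CL), which activates the β3 adrenergic receptor, from an osmotic pump at 0.75 nmol per hour for 4 days. Female mice of an Adrb1 line carried a floxed Adrb1 gene (the β1 adrenergic receptor) and all received tamoxifen. Those with strain label Adrb1 fl/fl; Pdgfra-CreER -/- are called wild type (WT) and those labelled +/- are called KO, in which Cre deletes Adrb1 in Pdgfra-expressing cells. This line had 1 experiment at RT and 1 in the cold per genotype. Mice were 8 to 14 weeks old and each library pooled 3 to 4 of them, so a library is a replicate pool and not a mouse.

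Glucocorticoids are steroid hormones of the adrenal cortex that cross the cell membrane and bind Nr3c1 in the cytoplasm, where heat shock proteins and immunophilins such as Fkbp5 hold it. The bound receptor moves to the nucleus and binds DNA at paired AGAACA arms. Hsd11b1 sits in the endoplasmic reticulum and turns inactive 11-dehydrocorticosterone into active corticosterone, so it sets the hormone level inside a cell. Fkbp5 lowers the affinity of the receptor for hormone, Tsc22d3 restrains NF-κB and AP-1 in immune cells, Zbtb16 is a transcription factor of innate-like lymphocytes that also acts in fat cell precursors, and Sgk1 is a kinase that controls ion transport. Mt1 and Mt2 are small cysteine-rich proteins that bind zinc and copper, and their genes respond to zinc through the factor MTF1 and also to glucocorticoids. In adipose tissue, glucocorticoids are known to promote the differentiation of fat cell precursors and to restrain inflammation.

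In the GRCm38 annotation (GENCODE vM21), Hsd11b1 lies at chr1:193221634-193264075 on the minus strand and Fkbp5 at chr17:28399094-28517527 on the minus strand. Tsc22d3 lies at chrX:140539528-140600659 and Zbtb16 at chr9:48654297-48836222, both on the minus strand, and Sgk1 at chr10:21882184-21999903 on the plus strand. Mt2 (chr8:94172664-94173568) and Mt1 (chr8:94179082-94180327) are neighbours on the plus strand, 5513 bases apart. The promoters of both metallothioneins are printed because the genes are followed as a pair, although below they moved together in some classes and apart in others. A stretch of an Sgk1 promoter is printed because it was the one stretch among the promoters searched of these genes that held a full receptor palindrome. In the first 2 sequences, capitals mark the core of the metal response element, TGCGCNC or TGCACNC on either strand, bound by MTF1. In the last, capitals mark the receptor arm AGAACA on either strand, and the last pair of them forms the receptor palindrome, an arm followed after 3 bases by the same arm on the opposite strand. All are the plus strand of GRCm38.p6 from RefSeq, starting 250 bases before an annotated start site.
Mt1, chr8:94178839-94179118: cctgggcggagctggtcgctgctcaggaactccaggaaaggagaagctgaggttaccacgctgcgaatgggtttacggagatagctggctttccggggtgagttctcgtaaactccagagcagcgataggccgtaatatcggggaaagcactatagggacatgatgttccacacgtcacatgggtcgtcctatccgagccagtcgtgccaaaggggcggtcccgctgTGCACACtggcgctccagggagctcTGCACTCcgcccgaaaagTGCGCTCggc
Mt2, chr8:94172368-94172647: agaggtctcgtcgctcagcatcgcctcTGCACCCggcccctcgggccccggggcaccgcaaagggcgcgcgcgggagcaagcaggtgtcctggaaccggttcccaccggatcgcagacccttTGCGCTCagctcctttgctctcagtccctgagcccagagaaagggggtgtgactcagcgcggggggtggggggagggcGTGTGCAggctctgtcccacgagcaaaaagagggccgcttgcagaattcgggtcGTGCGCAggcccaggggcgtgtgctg
Sgk1, chr10:21993640-21993739: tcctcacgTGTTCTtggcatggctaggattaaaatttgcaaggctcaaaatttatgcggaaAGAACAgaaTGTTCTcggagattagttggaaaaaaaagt

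The 300-base promoter of Mt1, of which the first 280 bases are printed, held 3 metal response cores and that of Mt2, printed to the same length, held 4. Of 32851 RefSeq promoters of 300 bases (250 bases before to 50 after the start), 25.7% held at least 1 such core and 0.517% held 4 or more. The palindrome was found in 3 of the 32851 promoters (0.00913%) and the single arm AGAACA, which the palindrome contains on both strands, in 18.97%. Hsd11b1 had 1 promoter in the table with 1 metal response core, 1 of 3 Tsc22d3 promoters held a single arm, 3 of 6 Sgk1 promoters held AGAACA and another 1 of the 6 held 1 metal response core, and the promoter of Fkbp5 held neither motif. No promoter of Nr3c1 or Zbtb16 was used. These matches are descriptions of the letters in each window and say nothing about binding.

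After filtering, 66339 Lin- and 59935 Lin+ cells remained, in 29 and 37 clusters. Clusters were named from marker genes, with the 8 genes and the other gene lists left out of the clustering. The names follow the classes of adipose stromal cells (ASC1, ASC2, ASC3), vascular endothelial cells (VEC), pericytes, vascular smooth muscle cells (VSMC), Schwann cells, macrophages (MAC), monocytes (MONO), dendritic cells (DEND), neutrophils (NEUT), and B, T and natural killer lymphocytes (Blym, Tlym, NK). The MONO-like class was Lin+ cluster 13, led by Ace, Adgre4 and Ear2, with 6 of 9 markers raised. Its values therefore need not hold for all monocytes. Total counts per library ran from 7857160 to 41979800 UMIs (unique molecular identifiers, 1 per captured mRNA molecule), with medians per cell from 1204 to 4358. RT replicate 2 of the C57 Lin- libraries stood apart, with 6171 of 22072 barcodes kept because 72.0% exceeded the mitochondrial limit. In the Adrb1 line, 41.3% of KO and 20.6% of WT Lin- barcodes at RT exceeded it, against 5.23% and 3.01% in the cold. In CL replicate 2, 1098 cell barcodes were found in both fractions (17.1% of its Lin- and 16.4% of its Lin+ cells). The Adrb1-line RT libraries were made with version 3 of the kit and all others with version 2, and per the study's methods the treatments of that line were collected on different days, so that temperature, kit and day cannot be told apart there. The targeted gene Adrb1 was at 2.70 to 7.77 CPM (counts scaled to 1 common total, the usual unit) in ASC1-like cells of the 6 C57 libraries and at 5.80 and 3.86 CPM in WT, against 0.601 and 0.523 CPM in KO, which are 1.00 and 3.97 counts.

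Averaged over RT, COLD and CL, ASC2-like cells had the highest mean for 4 of the 8 genes (Fkbp5, Zbtb16, Mt1 and Mt2), and the others were highest in pericyte-like, ASC1-like, Blym-like and VEC-like cells. The first place depended on the treatment for Nr3c1, Hsd11b1 and Mt1. Stromal and vascular classes are taken from the Lin- and immune classes from the Lin+ libraries. Levels are CPM of the summed counts of a class in 1 library, so they are shares of the RNA captured from that class. They are compared between classes for 1 gene at a time, as a description without a test. Over the 6 C57 libraries, Nr3c1 was at 268 ± 76.4 CPM (mean ± SD, n = 6) in pericyte-like and 262 ± 39.6 in VEC-like cells, and at 47.8 ± 11.7 in DEND3-like cells at the other end, with neighbours in this order overlapping throughout. Without cells under 1000 UMIs the order of the first pair turned. Hsd11b1 was highest in ASC1-like (425 ± 373 CPM), ASC3-like (235 ± 90.8) and NK-like cells (163 ± 38.5), whose ranges overlapped. This order held at RT, while in COLD the ASC1-like level (145 and 148 CPM) was below that of ASC3-like cells (316 and 349) and within that of NK-like cells (143 and 176). Hsd11b1 was at 1.52 ± 1.24 CPM in MAC2-like cells and 0.558 ± 0.475 in DEND1-like cells. Fkbp5 was highest in the ASC classes, with 54.1 ± 13.4 CPM in ASC2-like cells, 48.7 ± 11.4 in ASC1-like cells and 48.5 ± 10.5 in ASC3-like cells.

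Tsc22d3 was highest in Blym-like cells (922 ± 222 CPM), followed by NEUT-like (422 ± 226) and Tlym-like cells (381 ± 94.6), with overlap between B cells and neutrophils in single libraries. Zbtb16 was highest in ASC2-like cells (91.1 ± 50.01 CPM), ahead of ASC3-like (59.7 ± 34.2) and ASC1-like cells (44.3 ± 20.9), again overlapping. In the immune classes its mean ranged from 0.290 CPM in Blym-like to 13.6 CPM in MONO-like cells. Sgk1 was highest in Lin- VEC-like cells. Its level there was 806 ± 319 CPM, from 512 to 1346, above every library of the class next by mean, MONO-like cells (134 to 289), although the VEC-like cells of the Lin+ libraries, given further on, ran from 93.4 to 786 CPM. Mt1 was at 1280 ± 502 CPM in ASC2-like and 1235 ± 953 in MAC2-like cells, with MAC2-like cells first at RT and ASC1-like cells first by mean in COLD and CL, and at 40.9 ± 13.5 CPM in Tlym-like cells. Mt2 was at 1085 ± 348 CPM in ASC2-like cells, 511 ± 229 in ASC1-like, 362 ± 141 in ASC3-like and 314 ± 100 in Schwann-like cells. The ranges of those 4 classes overlapped in order, and single libraries of VSMC-like, DEND2-like and DEND3-like cells reached into the Schwann-like range.

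**Figure D1:**
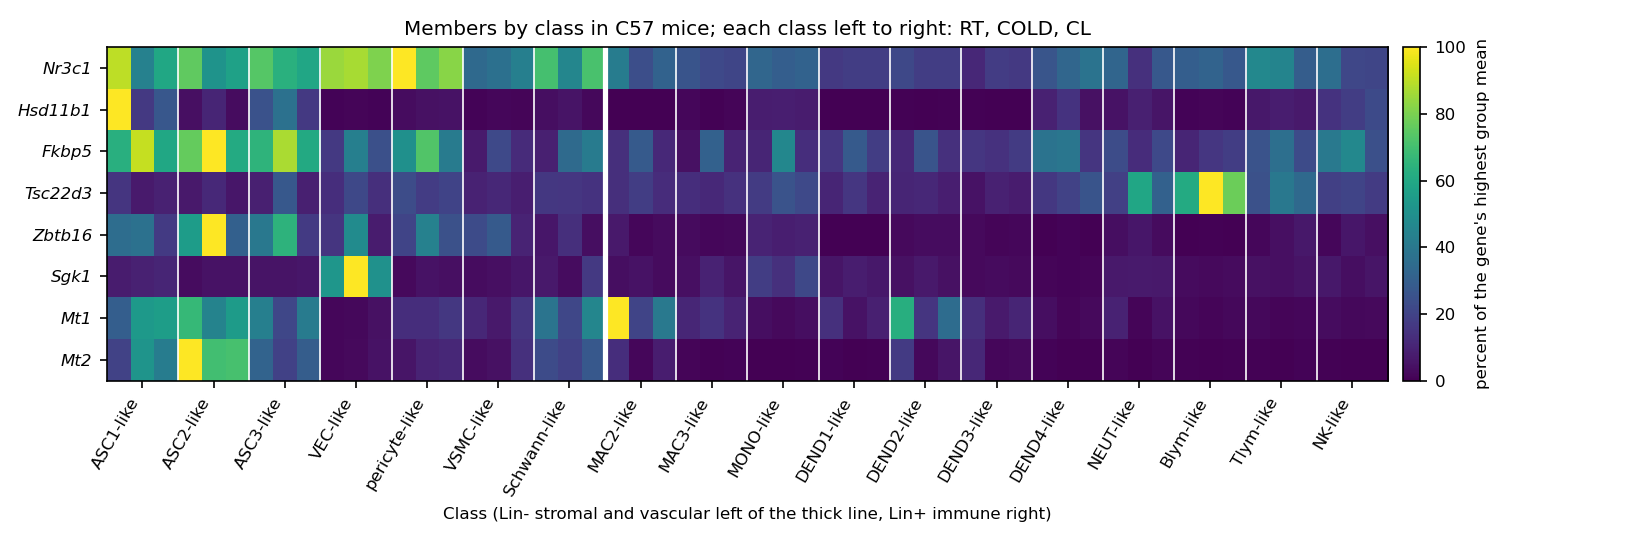
Mean level of each gene (rows) in each class of the C57 libraries, with RT, COLD and CL from left to right within a class (2 libraries each), in percent of the gene's own highest group mean, so that colours are not compared between rows. Hsd11b1 at RT in ASC1-like cells, Sgk1 in VEC-like cells, Tsc22d3 in Blym-like cells and Mt1 in MAC2-like cells at RT are the brightest cells of their rows or next to them.

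The first comparison asked what 4 days of cold did to these genes in the stromal and vascular classes. Hsd11b1 and Nr3c1 fell in ASC1-like cells, Fkbp5 rose in ASC1-like cells, Tsc22d3 rose in ASC3-like cells and Zbtb16 rose in VEC-like cells. These were 5 calls among 52 tests of the 8 genes over 7 Lin- classes, 3 higher and 2 lower, where 2.34% of all 64539 tests of all genes over these classes were called (1.34% higher and 0.998% lower). In ASC1-like cells alone, 5.14% of genes were called higher and 4.48% lower. Each class was tested with edgeR's quasi-likelihood test on summed counts of 2 against 2 libraries, with Benjamini-Hochberg adjustment over all genes of the class. The SE given with edgeR values is the absolute log2 fold change divided by the square root of the test's F statistic. It is an approximation derived from the test and not a separate estimate of the spread.

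Hsd11b1 showed the largest difference of the stromal calls. In ASC1-like cells its level was 781 and 992 CPM at RT, 145 and 148 CPM in COLD and 131 and 349 CPM with CL. Both COLD libraries lay below both RT libraries, with nearly equal values in the pair, while the CL libraries were spread. Hsd11b1 fell with COLD to 0.184 of its RT level (log2 fold change -2.44, SE 0.55, adjusted p = 0.0312). In the other ASC classes the values ran the other way without passing the test. ASC2-like cells had 45.4 and 30.3 CPM at RT, against 76.2 and 106 CPM in COLD (log2 fold change 1.24, SE 0.34, adjusted p = 0.173), and ASC3-like cells had 203 and 247 against 316 and 349 CPM (log2 fold change 0.60, SE 0.39, adjusted p = 0.8). Neither class had overlapping groups. Here and below, a lack of overlap between 2 and 2 libraries is a description and not a test. The share of all genes that show it is not given, so it adds no support to a call.

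The receptor itself showed a smaller difference. Nr3c1 in ASC1-like cells was at 218 and 342 CPM at RT, against 148 and 125 CPM in COLD, with CL between at 204 and 166 CPM. The RT and COLD groups did not overlap and the gene fell by 0.85 on the log2 scale (SE 0.22, adjusted p = 0.0474). In ASC2-like cells the values were 195 and 275 CPM at RT, against 177 and 142 in COLD, and in VEC-like cells 261 and 269 and 311 and 232. Over the 7 Lin- classes the median log2 fold change of Nr3c1 was -0.34, with 2 of 7 values above 0. Here and below, counts of classes by sign are descriptions. The classes come from the same libraries, so they are not independent replicates, and the share of all genes with as even a sign is not given.

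The ASC1-like class held different cells in the groups. Cluster 0 (led by Hsd11b1 itself, although the gene was left out of the clustering, then Smoc2, Gsn and Fbln7) had 1543 and 1355 cells at RT against 844 and 298 in COLD, and cluster 3 (led by Ccl2, Timp1 and Cxcl9) had 24 and 41 cells at RT against 2079 and 1992 in COLD. Within cluster 0, Hsd11b1 was at 801 and 1016 CPM at RT, against 333 and 476 CPM in COLD (log2 fold change -1.06, adjusted p = 0.385), and within cluster 3 its log2 fold change was -1.99, adjusted p = 0.165. Nr3c1 and Fkbp5 were likewise not called within either cluster, with log2 fold changes in cluster 0 of -0.51, adjusted p = 0.38 and 0.57, adjusted p = 0.186. The summed level of 10 interferon response genes in ASC1-like cells was 600 to 687 CPM at RT and 4363 to 4667 CPM in COLD, all 10 rising, and that of 12 brown adipocyte genes 455 to 481 and 1290 to 1401 CPM, 5 of 12 rising. The part of these shifts in the 3 ASC1-like calls was not tested. The calls of Hsd11b1 and Fkbp5 were lost when any 1 RT or COLD library was left out. Hsd11b1 then had adjusted p = 0.0927 and 0.078 for leaving out RT replicate 1 or 2, and 0.252 and 0.197 for COLD replicate 1 or 2, with log2 fold changes from -2.61 to -2.27. Fkbp5 had adjusted p = 0.0739, 0.161, 0.149 and 0.181 in the same order, with log2 fold changes from 0.57 to 0.82. Here and below, a range beside a lost call runs over the 6 fits that each leave out 1 C57 library. That of Nr3c1 was lost without any 1 of the 6 C57 libraries (-0.93 to -0.79, adjusted p from 0.0593 to 0.34) and passed the threshold by little, since fitting only the RT and COLD libraries, dropping the low-count filter, the cells under 1000 UMIs or the shared barcodes gave adjusted p = 0.0571, 0.0531, 0.0521 and 0.0548. With the replicate number as a block it was also lost (adjusted p = 0.0615).

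Of the receptor's targets, Fkbp5 had a log2 fold change above 0 in each stromal and vascular class in which it could be tested. In ASC1-like cells it was at 36.5 and 49.5 CPM at RT, 62.5 and 62.2 in COLD and 42.2 and 39.4 with CL, with no overlap between COLD and the other groups (log2 fold change 0.70, SE 0.16, adjusted p = 0.032). VEC-like cells had 11 and 11.7 CPM at RT, against 30.8 and 28 CPM in COLD, a larger fold that did not pass the test (log2 fold change 1.38, SE 0.29, adjusted p = 0.107). Over the 5 Lin- classes tested its log2 fold changes ran from 0.43 to 1.38, with 1 called.

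Tsc22d3 responded to cold differently in the ASC classes, a difference tested further on. In ASC3-like cells it was at 105 and 96.8 CPM at RT, 344 and 298 CPM in COLD and 98.2 and 107 CPM with CL, so that COLD stood apart from both other groups and the gene rose 3.13-fold (log2 fold change 1.65, SE 0.31, adjusted p = 0.039). In ASC1-like cells it was at 209 and 146 CPM at RT, against 78.1 and 92.1 CPM in COLD, lower in both cold libraries and not called (log2 fold change -1.004, SE 0.38, adjusted p = 0.133). ASC2-like cells had 90.4 and 71.8 CPM at RT, against 136 and 132 CPM in COLD, and VEC-like cells 168 and 131 and 218 and 286 CPM. The ASC3-like call was kept without RT replicate 1 (2.10, adjusted p = 0.0167) and lost without CL replicate 1 (1.66, adjusted p = 0.0865), CL replicate 2 (1.67, adjusted p = 0.0803), COLD replicate 1 (1.59, adjusted p = 0.198), COLD replicate 2 (1.74, adjusted p = 0.143) or RT replicate 2 (1.33, adjusted p = 0.0705). Fitting only the RT and COLD libraries gave adjusted p = 0.0922, and dropping the shared barcodes or the cells under 1000 UMIs gave 0.0524 and 0.0763.

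Zbtb16 set COLD apart from both RT and CL in VEC-like cells. This Lin- class joined cluster 6 (led by Car4), cluster 9 (led by Gkn3) and cluster 13 (led by Plvap). Their mix in each group is not given, and its part in the Zbtb16 and Sgk1 values of the class was not tested. In VEC-like cells Zbtb16 was at 16.4 and 29 CPM at RT, 73.3 and 69 CPM in COLD and 11.4 and 11 CPM with CL, with COLD above all other libraries. It rose 3.36-fold from RT to COLD (log2 fold change 1.75, SE 0.22, adjusted p = 0.0173), and COLD exceeded CL by 2.58 on the log2 scale (SE 0.25, adjusted p = 0.0231). In ASC3-like cells it was at 46.2 and 71.3 CPM at RT, 77.1 and 113 in COLD and 23.5 and 27 with CL, where COLD against CL was called (log2 fold change 1.71, SE 0.25, adjusted p = 0.029) and COLD against RT was not (adjusted p = 0.244). ASC2-like cells had 61.4 and 101, 126 and 169 and 37.3 and 53.2 CPM in the same order. Against RT, its log2 fold change in COLD was above 0 in 6 of 6 Lin- classes, and with the replicate number as a block ASC2-like cells were called too (0.95, adjusted p = 0.0135).

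The 3 Zbtb16 calls rested on few libraries. COLD against RT in VEC-like cells was lost without RT replicate 1 (1.55, adjusted p = 0.233), RT replicate 2 (1.95, adjusted p = 0.0768), COLD replicate 1 (1.75, adjusted p = 0.132) or COLD replicate 2 (1.78, adjusted p = 0.174), when the VEC-like cells of both fractions were summed (1.79, adjusted p = 0.206) and without cells under 1000 UMIs (1.55, adjusted p = 0.0932). COLD against CL in VEC-like cells was kept without CL replicate 2 (2.61, adjusted p = 0.0173) and lost without any other 1 library (adjusted p up to 0.283), with summed fractions (2.17, adjusted p = 0.216), with only those groups fitted (adjusted p = 0.0682) and without cells under 1000 UMIs (adjusted p = 0.0726). In ASC3-like cells it was lost with DESeq2 (adjusted p = 0.103) and without CL replicate 1 (1.59, adjusted p = 0.134), CL replicate 2 (2.03, adjusted p = 0.137), COLD replicate 2 (1.35, adjusted p = 0.446) or RT replicate 1 (1.72, adjusted p = 0.0607). VEC-like cells of the Lin- fraction also held 36887 to 68154 CPM of the 12 brown adipocyte genes in the 6 libraries, without separation of the groups. These 12 include Fabp4 and Car3, which were among the leading genes of the Lin+ VEC-like cluster 14. The part of either in the sum is not given, so it cannot be read as adipocyte RNA alone.

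Sgk1, the endothelial kinase of the list, was not called in any Lin- class. In VEC-like cells it was at 603 and 648 CPM at RT, 1346 and 1033 CPM in COLD and 694 and 512 CPM with CL (log2 fold change 0.93, SE 0.34, adjusted p = 0.34 for COLD against RT). The COLD libraries were above all others. VEC-like cells of the Lin+ libraries gave 391 and 139, 768 and 786 and 444 and 93.4 CPM in the same order. Of the 562 such cells of CL replicate 2, however, 465 carried barcodes also found in its Lin- library, and without them its level was 153 CPM. Pericyte-like cells had a log2 fold change of 1.01 (adjusted p = 0.403) and Schwann-like cells one of the opposite sign (-1.07, adjusted p = 0.394).

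**Figure D2:**
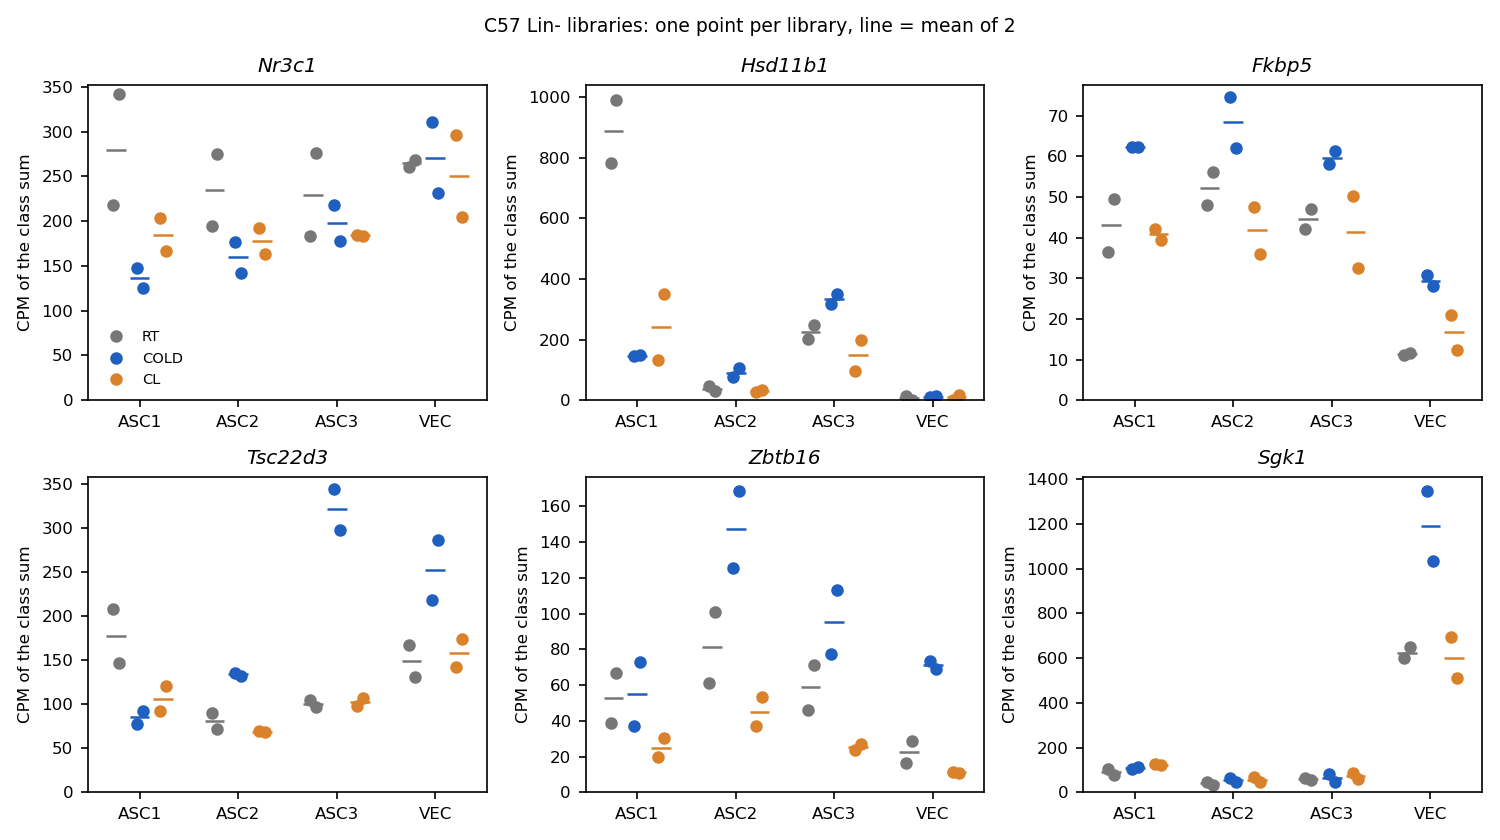
Level of 6 genes in CPM of the class sum (vertical axes, linear, from 0) in 4 Lin- classes of the C57 mice, with 1 point per library, RT grey, COLD blue, CL orange and a line at the mean of 2. Hsd11b1 in ASC1-like cells drops from 781 and 992 CPM at RT to 145 and 148 CPM in COLD, Tsc22d3 in ASC3-like cells and Zbtb16 in VEC-like cells are above all RT and CL points in COLD, and the Sgk1 points stand high in VEC-like cells alone among these 4 classes.

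Mt1 and Mt2 were not called in COLD against RT in any Lin- class. In ASC1-like cells Mt2 was at 326 and 212 CPM at RT, 539.6 and 857 CPM in COLD and 494 and 638 CPM with CL, so that both treatments lay above RT (log2 fold change 1.44, SE 0.56, adjusted p = 0.143 for COLD). Mt1 in the same cells was at 947 and 435, 868 and 1601 and 929.8 and 1634 CPM, with overlapping groups. The other ASC classes lay the other way: ASC2-like cells had 2139 and 955 CPM of Mt1 at RT and 799 and 1254 CPM in COLD, and ASC3-like cells had 1588 and 397 and 428 and 559 CPM, also overlapping. In ASC3-like cells the RT libraries lay on either side of both COLD libraries.

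Whether the cold response itself differed between classes was tested by fitting the sums of a pair of classes together, blocked on library. Of 32 tests (8 genes, ASC1-like cells against 4 other classes), 14 were called, 4 with ASC1-like cells higher and 10 lower, where 5.94% of the 48162 tests of all genes were called. In the same comparisons, the erythroid genes were called higher in 12 of 17 tests (70.6%) and the interferon response genes in 11 of 40 (27.5%), with 0 lower in both. The brown adipocyte genes had 5 higher and 4 lower of 48. The part of these in the differences of the 8 genes was not tested. Hsd11b1 differed in all 4 comparisons. Its mean over the C57 libraries was low in VEC-like (9.67 CPM), VSMC-like (11.4) and pericyte-like cells (38.1). The response of ASC1-like cells was below that of ASC2-like cells by 3.75 on the log2 scale (SE 0.34, adjusted p = 0.000233), with differences of -3.08, SE 0.21, adjusted p = 8.94e-09 against ASC3-like, -2.78, SE 0.65, adjusted p = 0.0376 against VEC-like and -2.70, SE 0.44, adjusted p = 0.00278 against pericyte-like and VSMC-like cells together.

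Tsc22d3 differed in 3 of the 4, by -2.67, SE 0.19, adjusted p = 1.82e-08 against ASC3-like, -1.74, SE 0.17, adjusted p = 0.000316 against ASC2-like and -1.72, SE 0.22, adjusted p = 0.00221 against VEC-like cells. The metallothioneins differed with the opposite sign. The ASC1-like response exceeded that of ASC3-like cells by 2.08 for Mt2 (adjusted p = 2.04e-05) and 1.68 for Mt1 (adjusted p = 0.00231), and that of ASC2-like cells by 1.91 (adjusted p = 0.00401) and 1.44 (adjusted p = 0.0296). Zbtb16 differed from ASC2-like (-0.77, adjusted p = 0.0269) and VEC-like cells (-1.58, adjusted p = 0.033), and Nr3c1 from ASC3-like cells (-0.73, adjusted p = 0.0121). All 14 use ASC1-like cells, whose members sat mostly in cluster 0 at RT and in cluster 3 in COLD as given above, and the part of this shift in the differences was not tested. In all, 6 of the 14 were kept without each of the C57 libraries in turn: Hsd11b1 against ASC2-like, ASC3-like and pericyte-like with VSMC-like cells, Tsc22d3 against ASC2-like and ASC3-like cells, and Mt2 against ASC3-like cells. Tsc22d3 against VEC-like and Mt1 against ASC3-like cells were lost without COLD replicate 2 (adjusted p = 0.0688 and 0.0931), Mt1 and Mt2 against ASC2-like cells without either COLD library (up to 0.255 and 0.0694), Hsd11b1 against VEC-like cells without either COLD library or RT replicate 2 (-5.11 to -2.09, up to 0.288), Zbtb16 against both classes without COLD replicate 1 or either RT library (-1.05 to -0.53, up to 0.208, and -2.17 to -1.06, up to 0.287), and Nr3c1 without any RT or COLD library (up to 0.0986).

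In C57 mice, calls of the metallothioneins in the immune classes were all lower with cold and lay in macrophages and dendritic cells. Mt2 fell in MAC2-like, DEND1-like, DEND2-like and DEND3-like cells, and Mt1 in MAC2-like, DEND2-like and DEND3-like cells. MAC2-like cells, which carry markers of resident macrophages such as Folr2, Mrc1 and Cd163, also showed lower Zbtb16 and Nr3c1 and higher Fkbp5. MAC3-like cells, named from Fcgr1, Ms4a4c and Ifi204 among others, showed higher Fkbp5 and Sgk1 and lower Hsd11b1. These were 13 calls among 73 tests over 12 Lin+ classes, 3 higher and 10 lower, where 7.75% of all 77063 tests were called (3.75% higher and 4.00% lower). In MAC2-like cells alone 12.3% of genes were called higher and 12.4% lower. The genes leading the MAC3-like class (Lin+ cluster 4) also included Chil3, a marker of the MONO list, so this class need not hold macrophages alone. Whether it held the same kinds of cells at RT and in COLD was not tested.

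Mt1 in MAC2-like cells was at 2866 and 1742 CPM at RT, 395 and 554 CPM in COLD and 562 and 1295 CPM with CL. Mt2 in the same cells was at 195 and 156, 27.5 and 24.2 and 68.1 and 144 CPM. For both genes RT and COLD did not overlap and CL lay between them. Mt2 fell by 2.77 on the log2 scale (SE 0.37, adjusted p = 0.00104), to 0.147 of its RT level, and Mt1 by 2.29 (SE 0.44, adjusted p = 0.00534). COLD was also below CL for Mt2 (log2 fold change -2.04, SE 0.36, adjusted p = 0.0232), a call lost without any RT or COLD library (-2.56 to -1.25, adjusted p up to 0.31) and with only those groups fitted (adjusted p = 0.0581).

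The dendritic classes gave the same picture for Mt2. DEND2-like cells, marked by Cd209a and Clec10a, had 262 and 193 CPM at RT, against 22 and 30.9 CPM in COLD (log2 fold change -3.29, SE 0.40, adjusted p = 0.00231). DEND3-like cells, marked by Ccr7 and Fscn1, had 213 and 85.2 and 19.6 and 30.9 CPM (log2 fold change -2.89, SE 0.42, adjusted p = 0.011), and DEND1-like cells, marked by Xcr1 and Clec9a, 12 and 10.9 and 1.86 and 0.832 CPM (log2 fold change -3.28, SE 0.47, adjusted p = 0.0105). RT and COLD did not overlap in any of them, although the DEND1-like level was low throughout. Mt1 was at 1589 and 1306 CPM at RT, against 267 and 447 CPM in COLD in DEND2-like cells (log2 fold change -2.20, SE 0.49, adjusted p = 0.0226) and at 359 and 267 and 148 and 188 CPM in DEND3-like cells (log2 fold change -1.14, SE 0.27, adjusted p = 0.0469).

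Over all Lin+ classes tested, Mt1 had a log2 fold change below 0 in 11 of 12 and Mt2 in 7 of 8, with medians of -1.13 and -2.32. These classes share libraries and do not count as replicates of each other. Lymphocytes and neutrophils were among the classes not called. Mt1 in NEUT-like cells was at 282 and 166 CPM at RT, against 45.4 and 22.9 CPM in COLD (log2 fold change -2.96, SE 0.62, adjusted p = 0.0924, called at 0.0282 with the replicate number as a block), where the COLD libraries held only 0.817 and 2.64 counts. In Tlym-like cells Mt1 was at 65.9 and 39.6 and 27.4 and 30.9 CPM, a log2 fold change of -1.12 with adjusted p = 0.221.

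The calls of Mt2 in MAC2-like and DEND2-like cells were kept without each C57 library in turn. The others were lost in part: Mt1 in MAC2-like cells without RT replicate 1 (-1.88, adjusted p = 0.0584) or COLD replicate 1 (-2.03, adjusted p = 0.0585), Mt2 in DEND3-like cells without RT replicate 1 (-1.98, adjusted p = 0.236), Mt2 in DEND1-like cells without COLD replicate 2 (-2.88, adjusted p = 0.0937), RT replicate 1 (-3.10, adjusted p = 0.229) or RT replicate 2 (-3.41, adjusted p = 0.0668), and Mt1 in DEND2-like and DEND3-like cells without any RT or COLD library (-2.65 to -1.86, adjusted p up to 0.176, and -1.36 to -0.84, up to 0.43).

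The MAC2-like class was also made of different cells in the groups. Cluster 1 (led by Ccl8, Folr2 and Selenop) had 122 and 74 cells at RT and 821 and 562 in COLD, and cluster 7 (led by Mgl2, C1qa and C1qc) had 594 and 637 at RT and 43 and 29 in COLD. Within cluster 1 both metallothioneins fell, Mt2 by 3.74 on the log2 scale (adjusted p = 1.57e-05) and Mt1 by 2.36 (adjusted p = 0.00205). Within cluster 7 neither was called, with log2 fold changes of -1.26, adjusted p = 0.392 and -0.81, adjusted p = 0.483. Beside them in MAC2-like cells, 16 dissociation and immediate early genes were at a summed 16044 to 16478 CPM at RT and 6972 to 7400 CPM in COLD, with 12 of 16 falling, and the 10 interferon response genes at 637 to 683 and 2824 to 3719 CPM, all 10 rising. In DEND3-like cells 5 erythroid genes were at 1 to 3 CPM at RT and 3126 to 4694 CPM in COLD, 3 of 4 tested rising, and in DEND1-like cells at 1 to 5 and 81 to 2427 CPM. The part of any of these in the metallothionein values was not tested.

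**Figure D3:**
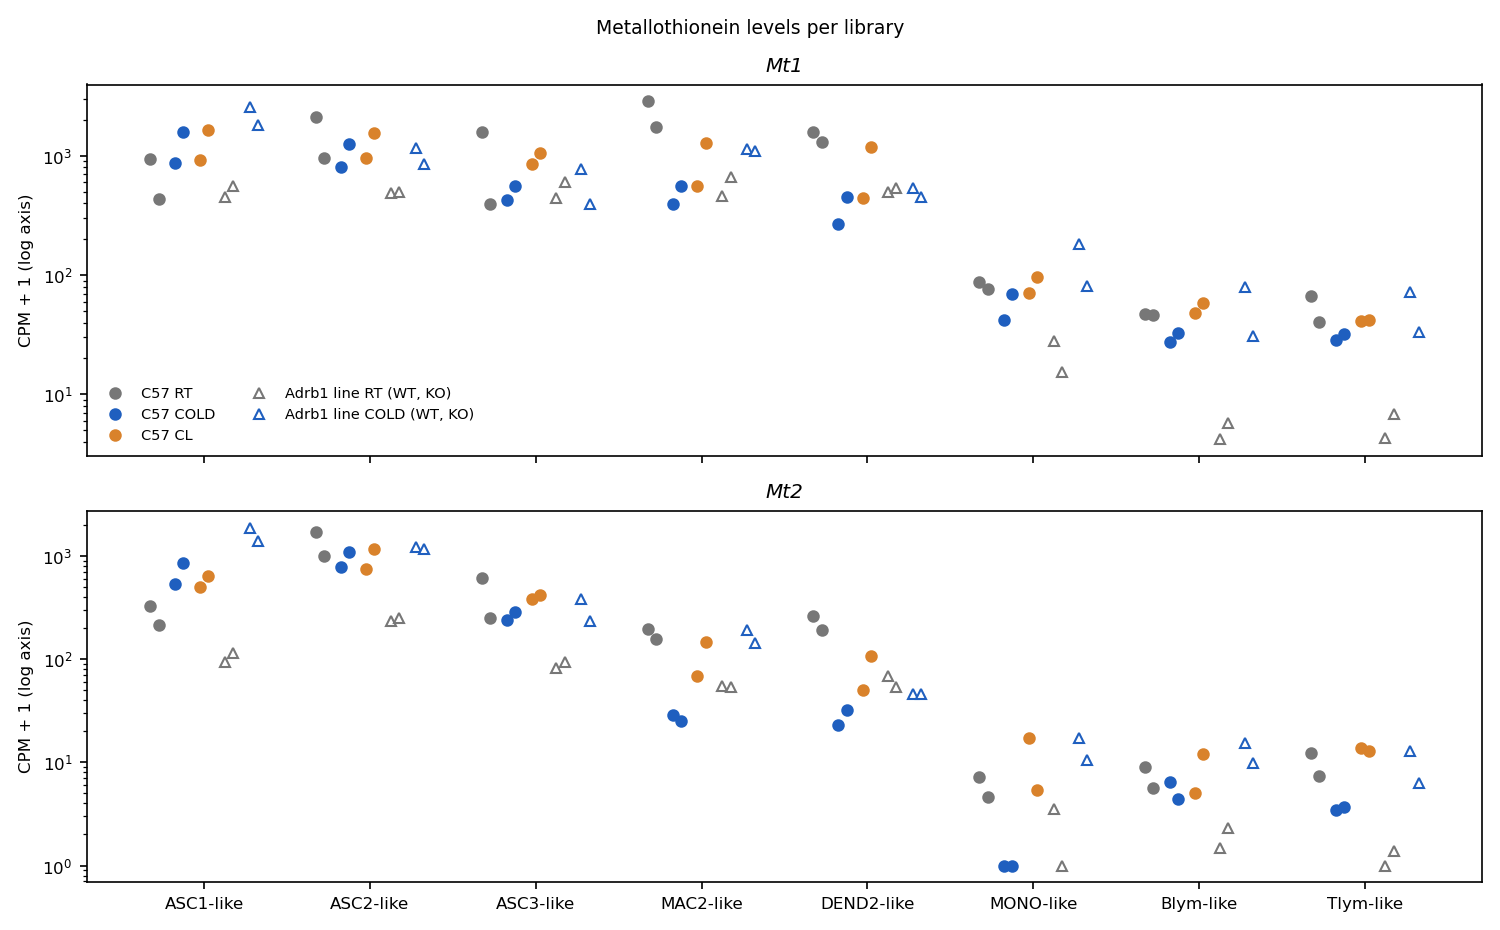
Level of Mt1 (upper panel) and Mt2 (lower panel) per library, as CPM of the class sum plus 1 on a log axis, in 8 classes. Filled circles are C57 libraries at RT (grey), COLD (blue) and CL (orange), and open triangles are Adrb1-line libraries with WT left of KO. In MAC2-like and DEND2-like cells the C57 COLD points lie below the RT points, and in the Adrb1 line the cold triangles lie above the RT triangles in ASC1-like, MAC2-like, MONO-like, Blym-like and Tlym-like cells.

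Among the receptor and its targets, the immune differences were smaller in level. Fkbp5 in MAC2-like cells was at 11.8 and 6.82 CPM at RT, against 17.6 and 20.9 CPM in COLD (log2 fold change 1.04, SE 0.33, adjusted p = 0.0411). In MAC3-like cells it was at 6.03 and 0 CPM at RT, which are 4.97 counts and none, and 18.9 and 23.4 CPM in COLD (log2 fold change 2.72, SE 0.74, adjusted p = 0.0336), so its fold rests on very few RT counts. Fkbp5 had a positive log2 fold change in 7 of 7 Lin+ classes tested, from 0.10 to 2.72. Both calls were lost without any 1 RT or COLD library (0.69 to 1.47, adjusted p up to 0.215 in MAC2-like cells, and 1.66 to 8.65, up to 0.157 in MAC3-like cells). The MAC2-like one was also lost with DESeq2 (adjusted p = 0.0891), without the top Scrublet cells (0.0619) and within cluster 1 or 7 of the class (log2 fold changes of 0.09 and 0.99).

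Nr3c1 in MAC2-like cells was at 143 and 118 CPM at RT, 93.8 and 57 in COLD and 112 and 84.2 with CL (log2 fold change -0.80, SE 0.23, adjusted p = 0.0292). Zbtb16 in MAC2-like cells was at 6.84 and 13.4 CPM at RT, against 1.9 and 3.47 CPM in COLD (log2 fold change -1.98, SE 0.64, adjusted p = 0.0462). In MAC3-like cells Hsd11b1 was at 13.3 and 19.8 CPM at RT, against 4.11 and 7.98 in COLD (log2 fold change -1.65, SE 0.48, adjusted p = 0.0431), and Sgk1 at 29.3 and 69.9 and 104 and 128 CPM (log2 fold change 1.12, SE 0.31, adjusted p = 0.0341). RT and COLD did not overlap for any of these 4, whose levels except Nr3c1 and Sgk1 were below 20 CPM. All were lost without at least 3 of the libraries in turn: Nr3c1 without COLD replicate 2, RT replicate 1 or RT replicate 2 (-1.17 to -0.52, adjusted p up to 0.262), Zbtb16 without any RT or COLD library (-2.44 to -1.38, up to 0.284), Hsd11b1 without COLD replicate 1, RT replicate 1 or RT replicate 2 (-2.07 to -1.16, up to 0.267) and Sgk1 without COLD replicate 1, COLD replicate 2 or RT replicate 1 (0.68 to 1.86, up to 0.167). Hsd11b1 was also lost with DESeq2 (adjusted p = 0.0612) and without the top Scrublet cells (0.0898), Zbtb16 without cells under 1000 UMIs (0.051), and Nr3c1 and Zbtb16 within cluster 1 of the MAC2-like class (0.0924 and 0.347) as within cluster 7.

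Tsc22d3 was not called in any immune class. In Blym-like cells, where it was highest, it was at 569 and 843 CPM at RT, 1126 and 1191 in COLD and 919 and 882 with CL (log2 fold change 0.54, SE 0.24, adjusted p = 0.394 for COLD against RT). NEUT-like cells had 236 and 205 CPM at RT, against 694 and 679 CPM in COLD (log2 fold change 1.49, SE 0.38, adjusted p = 0.244). RT and COLD did not overlap in either, which is a description beside values that did not pass the test. In NK-like cells, the immune class with most Hsd11b1, that gene was at 97.5 and 162 CPM at RT, 143 and 176 in COLD and 193 and 204 with CL, where RT and COLD overlapped and both CL libraries lay above them without a call.

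**Figure D4:**
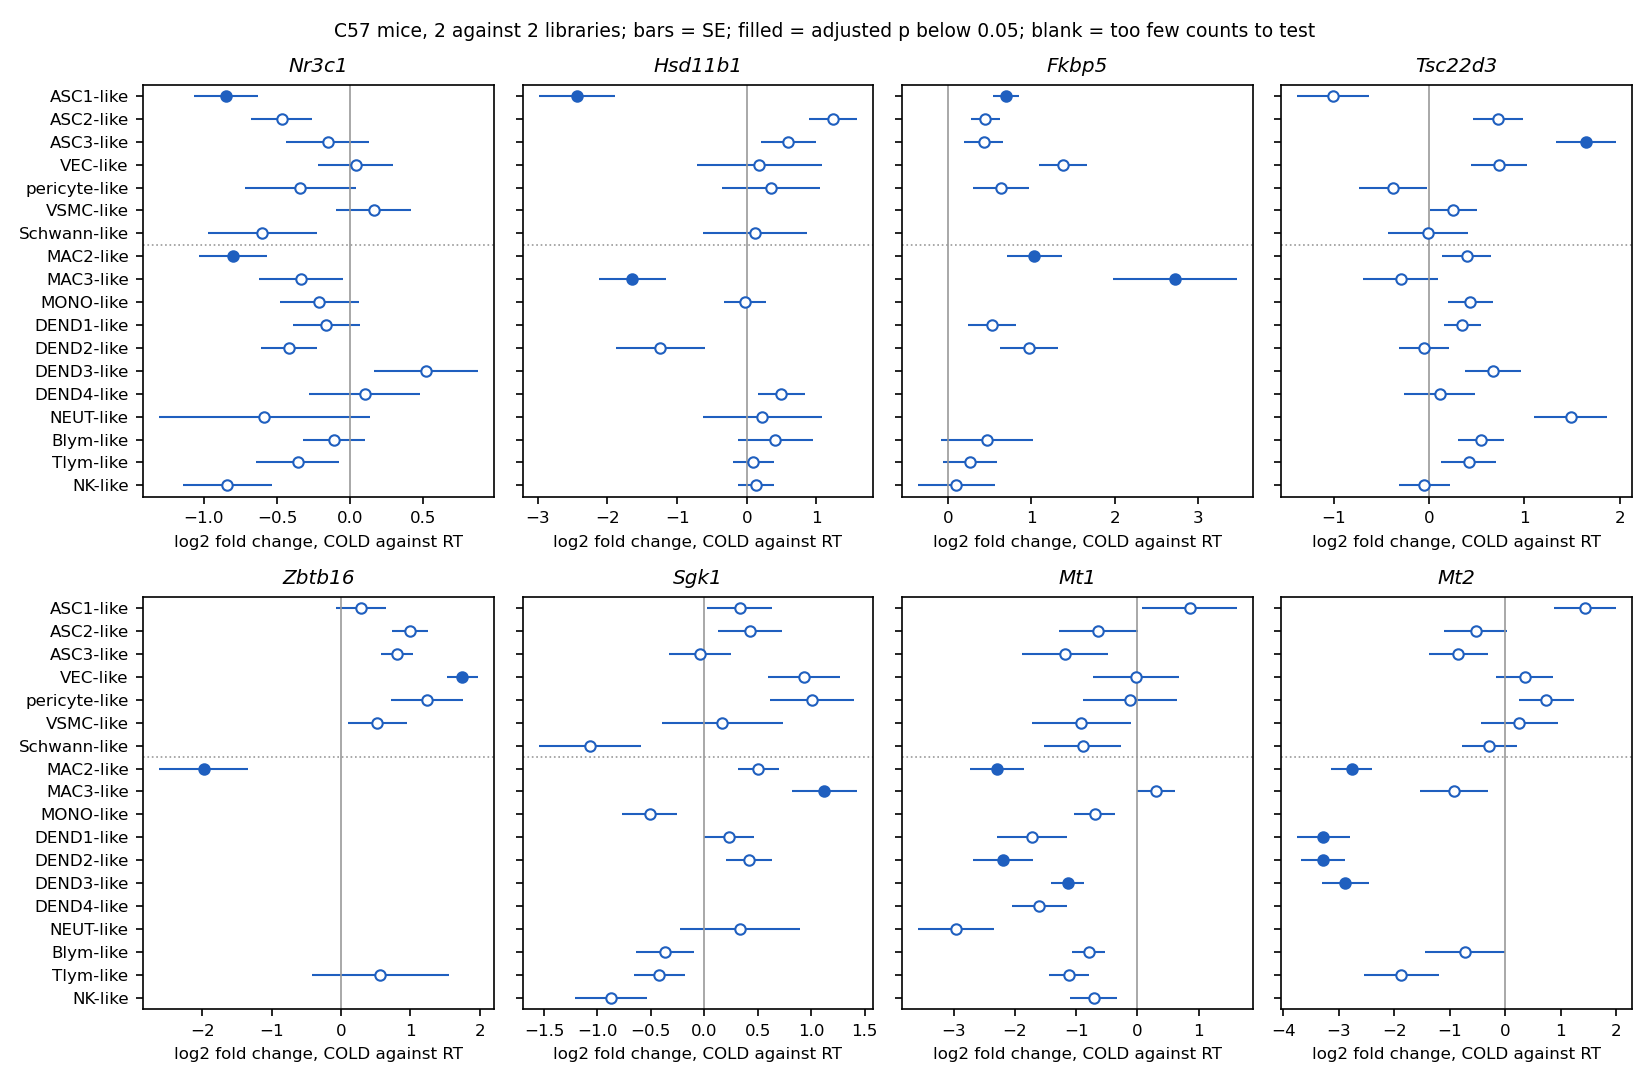
Log2 fold change of COLD against RT in C57 mice (horizontal axes, which differ between panels) for the 8 genes in each class (vertical axis, Lin- above and Lin+ below the dotted line), from edgeR on 2 against 2 libraries. Bars are the approximate SE derived from the test, filled points have an adjusted p below 0.05, and classes without a point had too few counts. Nr3c1, Hsd11b1 and Fkbp5 have filled points in ASC1-like cells, Nr3c1 and Fkbp5 also in MAC2-like cells, and Hsd11b1 and Fkbp5 also in MAC3-like cells. Those of Mt1 and Mt2 fall in MAC2-like, DEND2-like and DEND3-like cells, and for Mt2 also in DEND1-like cells.

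The β3 agonist CL was the other stimulus, compared with the same RT libraries. None of the 8 genes was called in CL against RT, in 52 tests over Lin- and 73 over Lin+ classes with edgeR, where 0.262% and 1.06% of all tests were called. At an unadjusted p under 0.05 there were 6 and 10, and DESeq2 called 0 and 1. The share of all genes under that unadjusted threshold is not given, so the 6 and 10 cannot be set against it. Hsd11b1 in ASC1-like cells differed by -1.58 on the log2 scale (SE 0.53, adjusted p = 0.246), with 1 CL library near the COLD level and the other between COLD and RT. Set directly against each other, COLD and CL gave 2 calls of 68 tests in Lin- classes (0.111% of all 84054 tests were called) and 2 of 79 in Lin+ classes (0.721% of 86907). These were Zbtb16, higher in COLD in VEC-like and ASC3-like cells, and Mt2, lower in COLD in MAC2-like and DEND1-like cells. In DEND1-like cells Mt2 was at 1.86 and 0.832 CPM in COLD and 9.49 and 9.73 CPM with CL (log2 fold change -2.85, SE 0.47, adjusted p = 0.0475), a call lost without any 1 of the 6 libraries (-3.43 to -2.46, adjusted p from 0.144 to 0.475), with only those groups fitted (adjusted p = 0.121), without cells under 1000 UMIs (0.0523), without shared barcodes (0.054) and with the replicate number as a block (0.0687). That block raised the count of COLD against CL calls to 6 in Lin- and 5 in Lin+ classes. The share of all genes called with the block is not given, so the rise cannot be read as particular to these genes. The calls gained were Zbtb16 in ASC2-like (1.52, adjusted p = 0.00496) and proliferating cells (1.501, 0.00150), Fkbp5 in proliferating (0.92, 0.0216) and MAC2-like cells (1.33, 0.0379), Sgk1 in Schwann-like (-2.09, 0.0169), MAC2-like (0.80, 0.0446) and MAC3-like cells (0.83, 0.0444), and Mt2 in MAC1-like cells (-1.76, 0.000102), as log2 fold changes. Mt1 was lower in COLD than in CL in 9 of 9 Lin- and 12 of 13 Lin+ classes, which share libraries, without a call.

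In the Adrb1 line, cold was compared with RT over 1 WT and 1 KO library each, with a term for genotype, and the kit and the collection day changed together with temperature. Of 54 Lin- tests 18 were called (14 higher, 4 lower), where 22.1% of all tests were called (10.7% higher and 11.4% lower), and of 56 Lin+ tests 30 (18 higher, 12 lower), where 41.7% were called (21.6% higher and 20.1% lower). Mt2 was higher in the cold libraries in 6 of 7 Lin- and 4 of 6 Lin+ classes and Mt1 in 1 of 7 and 6 of 8. Nr3c1 was lower in 4 of 7 and 7 of 8, Fkbp5 higher in 4 of 6 and 2 of 6, and Tsc22d3 higher in 2 of 7 and 4 of 8. Cold, kit and day cannot be told apart in any of these values, and DESeq2 called 40 of the 110 tests where edgeR called 48. In Lin+ classes of the line, the erythroid genes were called higher in 30 of 40 tests (75%) and lower in 0. The dissociation and immediate early genes were higher in 41 of 125 (32.8%) and lower in 17 (13.6%). In C57 COLD against RT, the latter were higher in 1 of 183 and lower in 15. The part of these shifts in the values of the 8 genes was not tested.

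ASC1-like cells of the line had 93.2 and 113 CPM of Mt2 at RT (WT, then KO) and 1889 and 1389 CPM in the cold (log2 fold change 4.08, SE 0.58, adjusted p = 0.000811). Mt1 was at 451 and 563 and 2575 and 1808 CPM (log2 fold change 2.20, SE 0.72, adjusted p = 0.0339), Nr3c1 at 375 and 372 and 100.1 and 102 CPM (log2 fold change -1.78, SE 0.21, adjusted p = 0.000399), and Fkbp5 at 26 and 38.2 and 60.8 and 62 CPM (log2 fold change 1.06, SE 0.18, adjusted p = 0.00164). RT and cold did not overlap for any of the 4, all of them called, which adds no support to the calls. Hsd11b1 in these cells was not called, with 165 and 149 CPM at RT, against 133 and 135 CPM in the cold (log2 fold change -0.12, SE 0.45, adjusted p = 0.863). In ASC3-like cells Tsc22d3 was at 58.7 and 133 and 431 and 209 CPM (log2 fold change 1.70, SE 0.42, adjusted p = 0.00906) and Hsd11b1 at 101 and 96.6 and 321 and 351 CPM (log2 fold change 1.70, SE 0.36, adjusted p = 0.00359).

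Mt1 and Mt2 in MAC2-like cells, which fell in C57 mice, rose in this line. Mt1 in MAC2-like cells was at 464 and 659 CPM at RT, against 1152 and 1089 CPM in the cold (log2 fold change 1.24, SE 0.42, adjusted p = 0.0306), and Mt2 at 54.3 and 52.8 and 190.4 and 142 CPM (log2 fold change 1.84, SE 0.37, adjusted p = 0.00196). Tlym-like cells had 3.33 and 5.87 and 71.4 and 32.1 CPM of Mt1 (log2 fold change 3.63, SE 0.41, adjusted p = 1.75e-05), where RT was close to 0. DEND2-like cells showed no such rise, with 67.8 and 52.8 CPM of Mt2 at RT, against 44.8 and 44.5 CPM in the cold (log2 fold change -0.17, adjusted p = 0.752), and 0.22 for Mt1 (adjusted p = 0.701). The difference between the cold responses of the line and of C57 mice was itself called in 1 of 54 Lin- and 15 of 56 Lin+ tests, against 4.22% and 12.8% of all tests. It was 3.56 for Mt1 (adjusted p = 0.00461) and 4.64 for Mt2 (adjusted p = 0.00112) in MAC2-like cells. Zbtb16 in MONO-like cells, at 77.1 and 57.4 CPM at RT, against 11.7 and 9.95 CPM in the cold, was lower by 2.32 on the log2 scale (SE 0.40, adjusted p = 5.98e-05). Over the 6 C57 libraries, RT among them, Zbtb16 ran from 11.8 to 15.9 CPM in these cells. The RT levels of the line were therefore high, and its cold levels lay near those of C57 mice.

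Between KO and WT, none of the 8 genes was called in 54 Lin- and 56 Lin+ tests by edgeR, and DESeq2 called 0 of them as well. By adjusted p, 0.00707% of all 127310 tests of all genes were called. At an unadjusted p under 0.05 there were 9 of 110 for the 8 genes. The share of all genes under that unadjusted threshold is not given, so the 9 cannot be read as particular to these genes. The unadjusted values were of Mt2 in VSMC-like (-1.87) and pericyte-like cells (-2.14), Mt1 in Blym-like (-1.02) and MONO-like cells (-1.14), Tsc22d3 in MAC2-like (0.85), NEUT-like (0.68), NK-like (0.57) and Lin+ VEC-like cells (-1.003), and Sgk1 in MAC2-like cells (-0.62), as log2 differences of KO against WT. Their adjusted p ran from 0.517 to 1. In ASC1-like cells, where the targeted gene was lost, Hsd11b1 was at 165 and 149 CPM in WT and KO at RT, against 133 and 135 CPM in the cold.

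**Figure D5:**
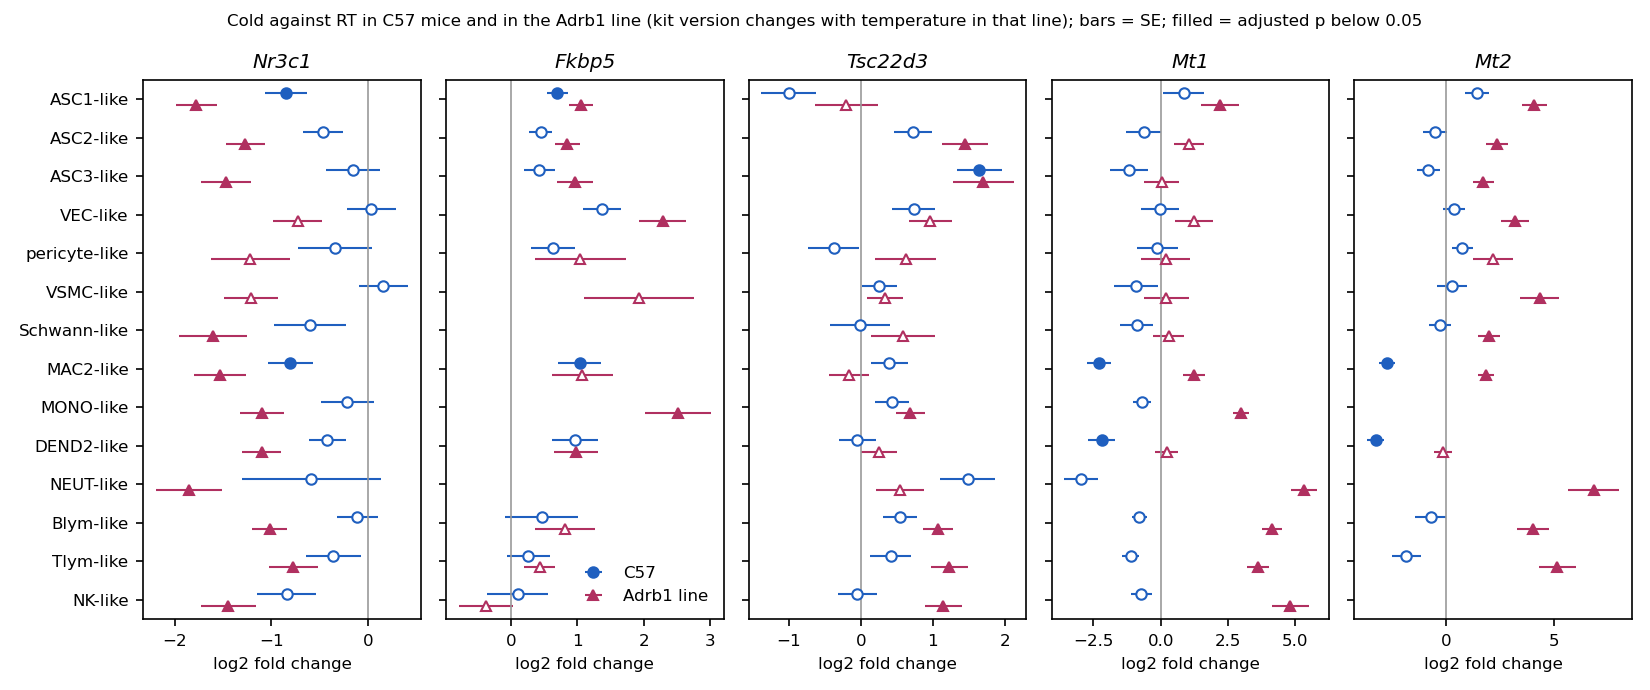
Log2 fold change of cold against RT (horizontal axes, which differ between panels) in C57 mice (circles, 2 against 2 libraries) and in the Adrb1 line (triangles, 1 WT and 1 KO library per temperature) for 5 genes in 14 classes, from edgeR. Bars are the approximate SE derived from the test and filled symbols have an adjusted p below 0.05. The Nr3c1 triangles all lie left of 0 and those of Mt1 all right of 0, while the C57 circles of Mt1 lie left of 0 in each class but ASC1-like cells.

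Of 15 genes of the receptor machinery, which hold, transport or assist the receptor or inactivate the hormone, 0 of 88 tests were called higher and 2 lower in COLD over the Lin- classes, both in ASC1-like cells, so that 2.27% were called lower beside 0.998% of all tests of all genes and none higher beside 1.34%. Among them was Nr3c2, the mineralocorticoid receptor (-1.56). The Lin+ classes had 3 higher and 5 lower of 120 (2.50% and 4.17%, beside 3.75% and 4.00% of all tests), among them the chaperone genes Hsp90aa1 (1.26) and Stip1 (1.38) in MAC3-like cells the cofactor Nrip1 in MAC2-like cells (-1.35) and the coactivator Ncoa1 in MAC3-like cells (-0.99), all as log2 fold changes. The median over the 15 tested genes in ASC1-like cells was 0.17, where that of all genes was 0.01.

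Of 24 further genes known to respond to glucocorticoids, 2 of 143 Lin- tests were called higher and 1 lower (1.40% and 0.699%, beside 1.34% and 0.998% of all). Angptl4, an inhibitor of lipoprotein lipase, rose in ASC1-like (2.90) and Schwann-like cells (3.32), and Pik3r1, a regulatory subunit of PI3 kinase, fell in ASC1-like cells (-1.02). Lin+ classes had 5 higher and 13 lower of 184 (2.72% and 7.07%, beside 3.75% and 4.00%), led by Mertk in MAC3-like cells (3.17), Anxa1 in MAC2-like cells (2.95), Angptl4 in MAC2-like cells (2.26) and Cdkn1c in MAC2-like cells (-2.09). Mertk is a receptor for the uptake of dead cells, Anxa1 an anti-inflammatory protein and Cdkn1c an inhibitor of the cell cycle. CL raised Angptl4 in ASC1-like cells too (2.68), the 1 call of 143 Lin- tests (0.166% of all tests were higher with CL), and gave 2 higher and 4 lower of 184 in Lin+ classes (1.09% and 2.17%, beside 0.590% and 0.468%), led by Angptl4 (2.80), Anxa1 (2.20), Cdkn1c (-1.83) and Errfi1 (-1.38), a feedback inhibitor of EGF receptor signalling, all in MAC2-like cells. The shares beside these CL counts are over all Lin+ classes together. That of MAC2-like cells alone is not given, so the named calls cannot be set against their own class. The medians of the list in COLD against RT were 0.04 in ASC1-like and -0.48 in MAC2-like cells, beside 0.01 and -0.01 over all genes.

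Of 20 genes of metal and redox handling, 1 of 93 Lin- tests was called higher and 2 lower in COLD (1.08% and 2.15%, beside 1.34% and 0.998%). Slc40a1, the iron exporter, rose in ASC1-like cells (1.77), and Trf, the iron carrier transferrin, fell in ASC1-like (-1.26) and ASC3-like cells (-1.29). In Lin+ classes 16 of 120 were called higher and 6 lower (13.3% and 5%, beside 3.75% and 4.00%), led by Ftl1, a ferritin chain, in Blym-like cells (-3.56), the redox enzyme Srxn1 in MAC3-like (3.01) and DEND2-like cells (2.64), and the haem-degrading Hmox1 in MAC3-like cells (2.76). MAC3-like cells, where 8.49% of all genes were called higher and 8.43% lower, had 7 of 15 tested higher and none lower, with a median of 1.21, while Mt1 and Mt2 in these cells were not called (0.31 and -0.92). COLD against CL gave 3 higher and 3 lower of 136 in Lin+ classes (2.21% each, beside 0.442% and 0.280%) and 0 of 124 in Lin- classes, where 0.111% of all tests were called. They were Ftl1 in Blym-like cells (-3.10), Slc40a1 in MAC2-like (-1.89) and MAC1-like cells (-1.85), and Srxn1 (1.94), the zinc exporter Slc30a1 (1.65) and the ferritin chain Fth1 (1.48) in MAC3-like cells. None of the 3 lists had a call between KO and WT.

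The genes most like each of the 8 were sought over 42 points, 7 Lin- classes by 6 C57 libraries, among 9754 genes, on levels of log2(CPM + 1), centred on the mean of each class. The points share libraries, so the correlations are descriptions. Mt1 and Mt2 were each other's nearest gene (Pearson r = 0.890), followed for both by the ribosomal protein gene Rps13 (0.889 and 0.842). Fkbp5 was most like Ddx58 and Sp110 (both 0.782), Hsd11b1 most like Angptl1 (0.814) and Sdc2 (0.783), Nr3c1 most like Amotl1 (0.831), Zbtb16 most like Mfsd3 (0.788), and Sgk1 most like Tmem252 (0.749). Tsc22d3 had no gene above 0.540 (Slc43a3). Among the 8 genes, all pairs other than Mt1 with Mt2 had r between -0.46 and 0.44.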

How the data were processed

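Per the labels and the study's methods, the authors prepared 10x Genomics libraries (kit version 3 in the Adrb1-line RT libraries, version 2 elsewhere), aligned reads to mm10 with Cell Ranger 3.0.1 and removed an estimate of cell-free RNA with SoupX, taking Fabp4 and Car3 as genes that the cells do not express. Each value the authors deposited is therefore an estimated count, and 97.2% to 99.6% of entries per library were not whole. They were summed per class and library and rounded after summing.

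Cells with under 10% mitochondrial counts and under 15000 UMIs, and under 4000 genes in Lin+ or over 100 in Lin- libraries, were kept. Clusters came from 2000 variable genes, 30 components, 30 neighbours and Leiden resolution 1 (scanpy 1.11.5, leidenalg 0.10.2, Python 3.11.15), with 6 cohorts aligned, and were named "-like" from fixed markers. No doublets were removed in the values given, and an alternative left out the top 6% of Scrublet scores. A class was tested where each library held at least 20 cells. MAC1-like, proliferating and differentiating adipocyte-like cells entered COLD against CL only.

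edgeR 4.0.16 (quasi-likelihood, TMM, filterByExpr, R 4.3.3, two-sided) tested the sums, with Benjamini-Hochberg adjustment over all genes of a class and contrast at 0.05. The 3 C57 groups shared 1 fit of 6 libraries, and the Adrb1-line contrasts came from a fit of 10. Differences between classes used the library as a block. The study's methods treat C57 libraries of the same number as 1 replicate experiment. The numbers were taken as pairs only in the blocked alternative and in the following correlations, and the main C57 tests ignore this pairing. Deviations from the group means correlated between same-numbered libraries with medians over Lin- classes of 0.396 for COLD with CL, 0.061 for RT with COLD and -0.116 for RT with CL, and over Lin+ classes of 0.138, 0.158 and -0.023. The main fit had no replicate block, and blocked values are given where they change a call. Alternatives were DESeq2 1.42.0, no low-count filter, only the 2 groups compared, the replicate number as a block, summed fractions, fewer cells and leaving out each C57 library. Counts per library limit the low genes, and the values carry no interval because SoupX output is not a count of molecules. The members, the gene lists and the comparisons were chosen with earlier results of these data known. The 8 genes are always named, and of each list all called genes up to 5, otherwise the 4 with the largest change. One called gene of the lists is not reported here, although the counts and medians include it. The test statements of the closing part on single clusters, shared barcodes and the difference between lines were chosen after seeing the data. Sequences came from RefSeq tables of GRCm38.p6.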

Additional observations from a re-analysis of the deposited data

Results flagged for a closer look

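The cold responses that differed between stromal classes, by the test of the difference itself (edgeR, log2 response of ASC1-like cells minus that of the other class, all with an adjusted p below 0.05), were the following. For Hsd11b1 the difference was -3.75 against ASC2-like, -3.08 against ASC3-like, -2.78 against VEC-like and -2.70 against pericyte-like and VSMC-like cells. For Tsc22d3 it was -1.74, -2.67 and -1.72 against ASC2-like, ASC3-like and VEC-like cells. Mt2 gave 1.91 and 2.08, and Mt1 1.44 and 1.68, against ASC2-like and ASC3-like cells. Zbtb16 gave -0.77 against ASC2-like and -1.58 against VEC-like cells, and Nr3c1 -0.73 against ASC3-like cells. ASC1-like cells were mostly of cluster 0 at RT (1543 and 1355 cells, against 24 and 41 of cluster 3) and of cluster 3 in COLD (2079 and 1992, against 844 and 298 of cluster 0), and the part of this shift was not tested.

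Cold responses also differed between the Adrb1 line and C57 mice in the 10-library fit, a comparison in which line, sex, tamoxifen, kit version and collection day cannot be told apart. The log2 difference (line minus C57) was 2.91 for Mt2 in ASC2-like cells, where the line had 231 and 249 CPM at RT, against 1210.2 and 1179 CPM in the cold. In immune classes Mt1 gave 4.94 in Blym-like, 4.74 in Tlym-like, 3.68 in MONO-like, 3.56 in MAC2-like, 2.40 in DEND2-like and 8.37 in NEUT-like cells, the last resting on 0.817 and 2.64 counts in the C57 COLD libraries, so that its size cannot be read. Mt2 gave 4.64 in MAC2-like and 3.10 in DEND2-like cells. In Blym-like cells Mt1 was at 3.19 and 4.73 CPM at RT, against 78.5 and 29.9 CPM in the cold in the line, against 46 and 45.2 and 26.7 and 31.6 CPM in C57 mice, so the RT levels of the line were low. Zbtb16 differed by -2.99 in DEND2-like, Nr3c1 by -0.91 in Blym-like and Tsc22d3 by 1.17 in NK-like cells. Another 4 called differences of Mt1 or Mt2 are not given because a group held under 3 counts.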

How the results depend on the processing

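The number of these genes called depended on the setting. The share of all genes called under each alternative, the replicate block among them, is not given. The counts therefore do not show whether a change was particular to these genes. In COLD against RT, the 5 Lin- calls became 3 with only the 2 groups fitted, 2 within ASC1-like cluster 0 or 3 alone, 11 without the low-count filter, 2 without cells under 1000 UMIs, 3 without shared barcodes and 0 to 4 when 1 library was left out. The 13 Lin+ calls became 8 within MAC2-like cluster 7 alone, 11 within cluster 1 alone (3 lost and Sgk1 in MAC2-like cells gained), with DESeq2 or without the top Scrublet cells, and 2 to 17 with 1 library left out. In CL against RT, the 0 Lin- calls became 5 without the filter and 0 to 4 with 1 library left out, and the 0 Lin+ calls became 1 with DESeq2, 1 within cluster 1 alone, 8 without the filter and 0 to 6. In COLD against CL, the 2 Lin- calls became 1 with both fractions summed, 11 without the filter, 1 without cells under 1000 UMIs and 0 to 3, and the 2 Lin+ calls 0 with 2 groups, 1 within cluster 7, 16 without the filter, 1 without cells under 1000 UMIs, 1 without shared barcodes and 0 to 9. KO against WT became 3 without the filter. The 14 class differences ran from 8 to 16 with 1 library left out. The class with the highest mean remained for 7 of the 8 genes without cells under 1000 UMIs. No called value changed its sign in the alternatives run. The causes were not tested.

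With the replicate number as a block, COLD against CL gave 6 Lin- and 5 Lin+ calls in place of 2 and 2, and COLD against RT 5 and 14. Beyond the calls lost or gained that are named with the results, the block changed no other call of the 8 genes in the C57 comparisons. Of the 69 single calls compared with DESeq2, which were not all of them, 57 were kept. Replicates are few and low genes rest on few counts, which limits the small differences.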

Other observations

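Clusters left without a name also carried these genes. In a Lin- cluster led by Cilp and Thbs4 (cluster 14), Tsc22d3 was at 145 and 125 CPM at RT, 308 and 482 CPM in COLD and 50 and 120 CPM with CL, and Zbtb16 was at 59 and 76, 129 and 228, and 8 and 38 CPM in the same order. COLD lay above the other groups for both genes. In a Lin- cluster led by Chodl and Arxes1 (cluster 12), Sgk1 was at 190 and 144 CPM at RT, 35 and 43 in COLD and 57 and 55 with CL, and Tsc22d3 at 150 and 176, 50 and 44, and 55 and 64 CPM, so that both treatments lay below RT. In a Lin+ cluster of cycling cells (cluster 18), Mt1 was at 1404 and 1028 CPM at RT, 340 and 408 CPM in COLD and 405 and 1021 CPM with CL. None of these clusters was tested.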
